A study of Homo sapiens with 6 samples.

Results

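The genes described here encode E2F transcription factors and the factors that work with them in the DREAM and MYB-MuvB complexes. They are E2F1, E2F2, E2F3, E2F4, E2F7, E2F8, MYBL2, FOXM1, RBL1 and TFDP1, chosen by name, and all 10 had 1 row each among the 13021 gene identifiers analysed. Each was listed in all 6 RNA sequencing libraries. The libraries came from HCT116 (HCT116WT in the sample titles), HT29 and SW480, established human colorectal cancer lines. Each line gave 1 library from cells with a stable lentiviral short hairpin RNA (shRNA) against BZW2 and 1 from cells with a non-targeting shRNA, so each group held 3 libraries, 1 per line. Every stable line, controls included, came from puromycin selection (1 µg/ml) after infection. The comparison addresses which transcripts differ when BZW2, whose protein resembles part of initiation factor eIF5, is depleted. The sample titles name the same BZW2 hairpin in every line, so the hairpin's own effects and those of losing BZW2 cannot be told apart. With 1 library per line and treatment, lines stand in for replicates, and repeat cultures of a line were not analysed here.

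E2F factors bind DNA together with a DP partner such as TFDP1 and set the transcription of genes for S phase. E2F1, E2F2 and E2F3 act mainly as activators and are held in check by the retinoblastoma protein. E2F4 acts mainly as a repressor together with the pocket proteins RBL1 (p107) and RBL2 (p130), and the DREAM complex joins them to the MuvB core in resting cells. In cycling cells the MuvB core binds MYBL2 (B-Myb) instead, and later FOXM1, and these complexes activate genes of G2 phase and mitosis. E2F7 and E2F8 are atypical E2Fs that repress E2F targets late in S phase, and they are E2F targets themselves.

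The knockdown libraries held 2187373 (HCT116) to 8968603 (HT29) reads over listed genes, and the controls 5078001 to 9317444. BZW2 itself was reduced to 17.6% (HCT116), 8.69% (HT29) and 13.5% (SW480) of the control level. The HCT116 pair stood apart: its log2 ratios had an SD of 1.57 over 10638 genes, against 0.64 in HT29 and 0.67 in SW480. In HCT116 the ratios followed the GC content of the transcript (Spearman 0.69 across genes, which are not independent replicates), more than in HT29 (0.32) and SW480 (−0.052). Of 10 intestinal and epithelial marker genes, 6 were listed in every library, with a summed level of 6261 to 15435 CPM (reads relative to library size) in knockdown and 4073 to 10536 CPM in control libraries. The widest gap was in HCT116, at 15435 CPM in knockdown and 4073 CPM in control cells, and its part in the results was not tested. KRT20, CDX1, VIL1 and CDH17 were not analysed here. Of 12 markers of blood, vessel, muscle, fibroblast and liver cells, 2 were listed in HCT116 and SW480 and 0 in HT29, and their summed level stayed at or below 9.82 CPM in knockdown and 12.9 CPM in control libraries.

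All 10 genes had a higher fitted level with BZW2 shRNA, against 5558 of all 10875 genes in the fit. Of the 10, 8 were higher in each of the 3 lines, where 22.3% of all genes were, while 0 were lower in each line, against 21.1% of all genes. MYBL2, E2F1, FOXM1 and E2F2 showed the largest values, E2F3 and RBL1 the smallest. None of the 10 passed the threshold over all genes in limma with the cell line as a term (Benjamini-Hochberg adjusted p under 0.05), and 0% of the 10875 genes in that fit did. At an unadjusted limma p under 0.05, 5 of the 10 were higher (MYBL2, E2F1, FOXM1, E2F2 and E2F4), against 6.59% of all genes. edgeR on recovered reads also called 0 of the 10, with 4 higher at an unadjusted p under 0.05, against 5.05% of all genes, and DESeq2 called 2, E2F1 and MYBL2, beside 2.24% of all genes. Without the HCT116 pair, 7 of the 10 were higher at an unadjusted limma p under 0.05, against 9.67% of all genes, and all 10 were higher in both remaining lines, against 32.5% of all genes. The median log2 fold change of the 10 genes was 0.93, beside 0.021 over all genes. These genes were chosen with results of these data known, so the counts describe them and are no test of the group. RNA from bulk cultures cannot tell a larger share of cycling cells from more RNA per cell.

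E2F1, the activator best known for driving entry into S phase, lies on the minus strand of chromosome 20 at positions 33675683 to 33686404 (GENCODE 29 on GRCh38, as for all genes below). Its level was 74.1 CPM in HCT116, 65.0 in HT29 and 39.0 in SW480 knockdown cells, against 21.2, 23.6 and 16.0 CPM in the control cells of the same lines. Every knockdown library lay above every control library. The knockdown level was 3.56-fold the control level in HCT116 (95% exact counting interval 2.77 to 4.57, 137 against 124 reads from libraries of unequal depth). It was 2.77-fold in HT29 (2.37 to 3.25, 579 against 217 reads) and 2.48-fold in SW480 (1.93 to 3.22, 254 against 82 reads). These intervals, here and below, cover counting error only. Over the 3 lines E2F1 had a log2 fold change of 1.56 ± 0.39 (SE; limma adjusted p = 0.263). It passed without HCT116 (1.41, limma adjusted p = 0.0172, where 3.11% of genes passed), and over 11 alternative fits its adjusted p ranged up to 0.732. After correction for transcript GC content and length, the HCT116 ratio dropped to 1.27-fold, while HT29 stood at 2.39-fold and SW480 at 2.51-fold.

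E2F2 (chromosome 1, 23506430 to 23531220, minus strand), a close relative of E2F1 with few reads here, reached 70.3 CPM in HCT116 knockdown cells, but 5.73 CPM in HT29 and 7.67 CPM in SW480 knockdown cells. The control cells held 7.35 CPM in HCT116 and 4.49 CPM in SW480, and 20 reads in HT29. The groups overlapped, and only the HCT116 knockdown library was set apart. The ratio was 9.74-fold in HCT116 (6.85 to 14.1, 130 against 43 reads), 2.65-fold in HT29 (1.55 to 4.69, 51 against 20 reads) and 1.74-fold in SW480 (1.04 to 2.99, 50 against 23 reads). Its log2 fold change came to 1.82 ± 0.58 (SE over 3 lines, limma adjusted p = 0.305), and 1.10 without HCT116.

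E2F3 (chromosome 6, 20401906 to 20493715, plus strand), the third activator, differed little. It had 40.0 CPM in HCT116 and 24.8 CPM in HT29 knockdown cells, against 30.7 and 21.5 CPM in their controls, and 228 reads in SW480 knockdown cells against 145 in the control. The groups overlapped. The ratios of 1.32-fold in HCT116 (0.996 to 1.75) and 1.16-fold in HT29 (0.952 to 1.41) had counting intervals that included equal levels, and SW480 stood at 1.26-fold (1.02 to 1.56). Over the lines the fitted log2 fold change was 0.35 ± 0.39 (SE over 3 lines, limma adjusted p = 0.659). E2F3 has separate promoters for its isoforms, which a gene total does not resolve, and GENCODE names 2 processed pseudogenes of it, so reads may be split between copies.

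**Figure D1:**
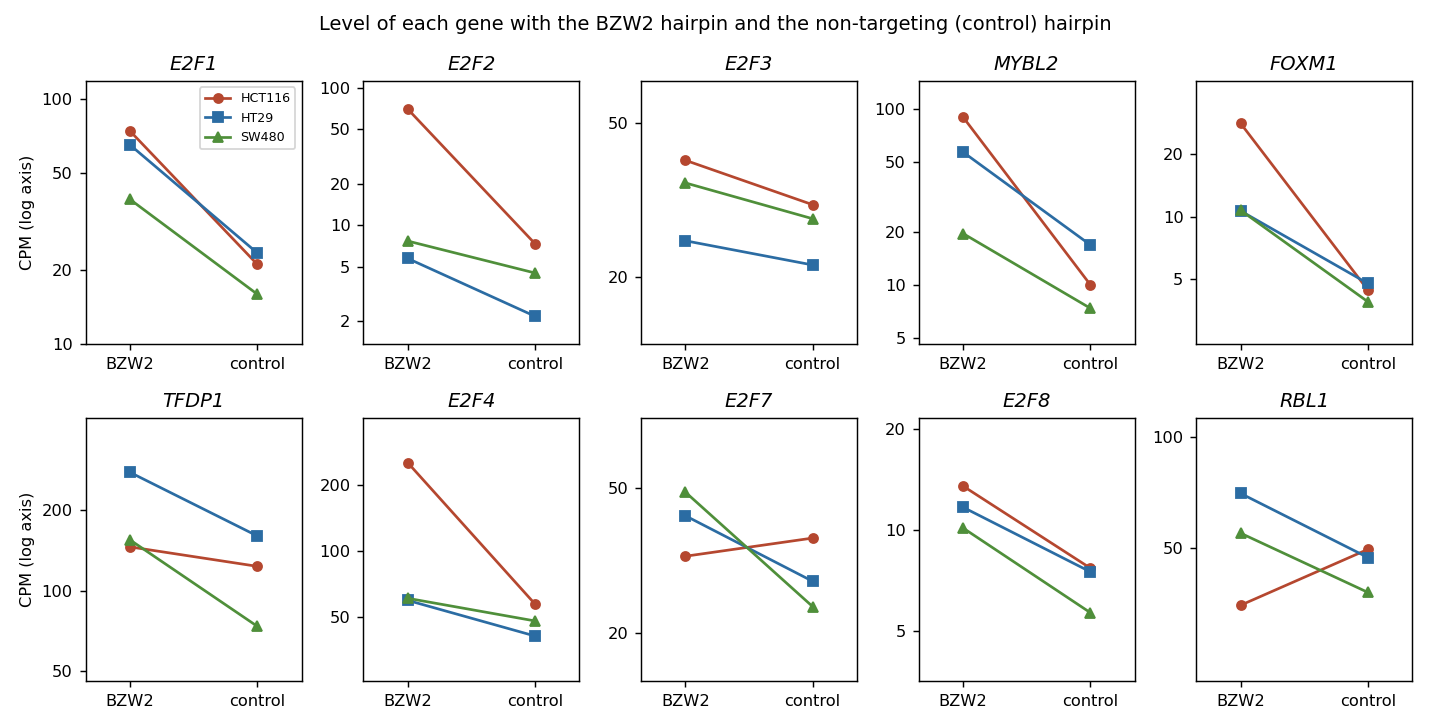
Level of each of the 10 genes in CPM, scaled over all 6 libraries, on a log axis. In each panel BZW2 shRNA libraries are on the left and non-targeting control libraries on the right, joined by line; the knockdown point is the higher one in all panels except E2F7 and RBL1 in HCT116.

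MYBL2 and FOXM1, the activators of G2 and mitosis genes, were higher in every line. MYBL2 (chromosome 20, 43667019 to 43716496, plus strand) had 89.7, 56.8 and 19.6 CPM in HCT116, HT29 and SW480 knockdown cells, against 10.1, 16.9 and 7.41 CPM in their controls. The lowest knockdown level exceeded the highest control level. The ratios were 9.06-fold in HCT116 (6.70 to 12.4, 166 against 59 reads), 3.37-fold in HT29 (2.81 to 4.06, 506 against 156 reads) and 2.70-fold in SW480 (1.87 to 3.98, 128 against 38 reads). MYBL2 had the smallest p of the 10 genes, at a log2 fold change of 2.13 ± 0.48 (SE; limma adjusted p = 0.250), and was 21st by p among genes with a positive fold change. With HCT116 left out it passed at 1.61 (limma adjusted p = 0.0146). With SW480 left out it passed at 2.48 (limma adjusted p = 0.0473), as did 1.26% of genes, and its adjusted p reached 0.732 among 11 alternative fits.

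FOXM1, a forkhead factor that follows B-Myb onto the MuvB core, rests on few reads. It lies at positions 2857681 to 2877155 of chromosome 12 on the minus strand. Knockdown cells held 28.1 CPM in HCT116, 10.7 in HT29 and 10.7 in SW480, against 4.44, 4.78 and 3.90 CPM in the controls. The groups did not overlap, and the control levels of the 3 lines lay within 1 CPM of each other. The ratios were 6.44-fold in HCT116 (3.95 to 10.7, 52 against 26 reads), 2.24-fold in HT29 (1.55 to 3.28, 95 against 44 reads) and 2.80-fold in SW480 (1.69 to 4.87, 70 against 20 reads). FOXM1 had a log2 fold change of 1.77 ± 0.51 (SE, n = 3 lines, limma adjusted p = 0.279). FOXM1 shares 898 bases with RHNO1 and 2111 bases with ITFG2, both on the opposite strand, and without a stated strand their reads cannot be told apart. RHNO1 stood at a log2 ratio of 0.061 (HCT116), 0.58 (HT29) and 0.72 (SW480), below those of FOXM1 (2.55, 1.13 and 1.41). ITFG2 stood at 2.48 in HCT116 but at −0.46 in HT29 and −0.62 in SW480, opposite to FOXM1 in both.

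TFDP1, which encodes the DP1 partner that E2F1 to E2F4 need to bind DNA, was the most abundant of the 10 per transcript length. The gene spans positions 113584721 to 113641470 of chromosome 13 on the plus strand. Its level was 146 CPM in HCT116, 277 in HT29 and 155 in SW480 knockdown cells, against 123, 160 and 73.7 CPM in the controls, and the groups overlapped. Here the order of the lines was turned round: the ratio was 2.14-fold in SW480 (1.90 to 2.42), 1.73-fold in HT29 (1.63 to 1.85) and 1.20-fold in HCT116 (1.04 to 1.39). The HCT116 value turned to the other side of equal levels with scaling by library size alone (log2 ratio −0.054), which moves the median of all genes in that line to −0.36. The fitted log2 fold change was 0.75 ± 0.36 (SE over 3 lines, limma adjusted p = 0.384).

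The repressors showed smaller differences than E2F1, MYBL2 and FOXM1 in HT29. E2F4 (chromosome 16, 67192169 to 67198918, plus strand), an E2F of the DREAM complex, had 252 CPM in HCT116 knockdown cells, against 57.6 CPM in the control. HT29 held 59.8 CPM in knockdown and 41.2 CPM in control cells, and SW480 61.1 and 48.2 CPM. Knockdown and control libraries did not overlap, although by a narrow margin outside HCT116. The ratios were 4.46-fold in HCT116 (3.87 to 5.15), 1.46-fold in HT29 (1.28 to 1.67) and 1.29-fold in SW480 (1.10 to 1.52). The log2 fold change of 1.06 ± 0.45 (SE over 3 lines, limma adjusted p = 0.359) came to 0.48 without HCT116. GENCODE names 1 processed pseudogene of E2F4.

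E2F7 (chromosome 12, 77021247 to 77065580, minus strand), an atypical repressor that binds DNA without a DP partner, went different ways in the lines as measured, with an HCT116 log2 ratio of −0.14 that turned to 0.70 after the GC and length correction. Knockdown cells held 32.4 CPM in HCT116, 41.9 in HT29 and 48.6 in SW480, against 36.4, 27.7 and 23.6 CPM in the controls. HT29 and SW480 were higher and HCT116 was not, so the groups overlapped. The ratio was 0.907-fold in HCT116 (0.670 to 1.21), with an interval that included equal levels, 1.52-fold in HT29 (1.29 to 1.79) and 2.10-fold in SW480 (1.70 to 2.61). E2F8 (chromosome 11, 19224063 to 19241620, minus strand), its close relative, had few reads but little spread among lines. Its knockdown levels of 13.5, 11.7 and 10.1 CPM in HCT116, HT29 and SW480 all lay above the control levels of 7.69, 7.49 and 5.66 CPM. The E2F8 ratios were 1.79-fold (1.05 to 2.98), 1.57-fold (1.14 to 2.15) and 1.82-fold (1.16 to 2.93) in that order of lines. An annotated antisense gene covers all of E2F8, and the strandedness of the libraries is not given in the sources used here. The log2 fold changes were 0.54 ± 0.42 for E2F7 and 0.80 ± 0.46 for E2F8 (SE over 3 lines, limma adjusted p = 0.521 and 0.422), and without HCT116 E2F7 stood at 0.86.

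RBL1 (chromosome 20, 36996349 to 37095995, minus strand), the pocket protein p107, was lower in HCT116 as measured, but higher there after the GC and length correction (log2 ratio −0.47 as measured, 0.83 corrected), and higher in the other lines. Its levels were 35.1 CPM in HCT116, 70.3 in HT29 and 54.9 in SW480 knockdown cells, against 49.7, 47.2 and 38.0 CPM in the controls. The ratio of 0.719-fold in HCT116 (0.541 to 0.944) lay below equal levels, and those of 1.49-fold in HT29 (1.32 to 1.69) and 1.47-fold in SW480 (1.23 to 1.76) above them. Its log2 fold change came to 0.26 ± 0.40 (SE over 3 lines, limma adjusted p = 0.759), and 0.59 without HCT116.

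**Figure D2:**
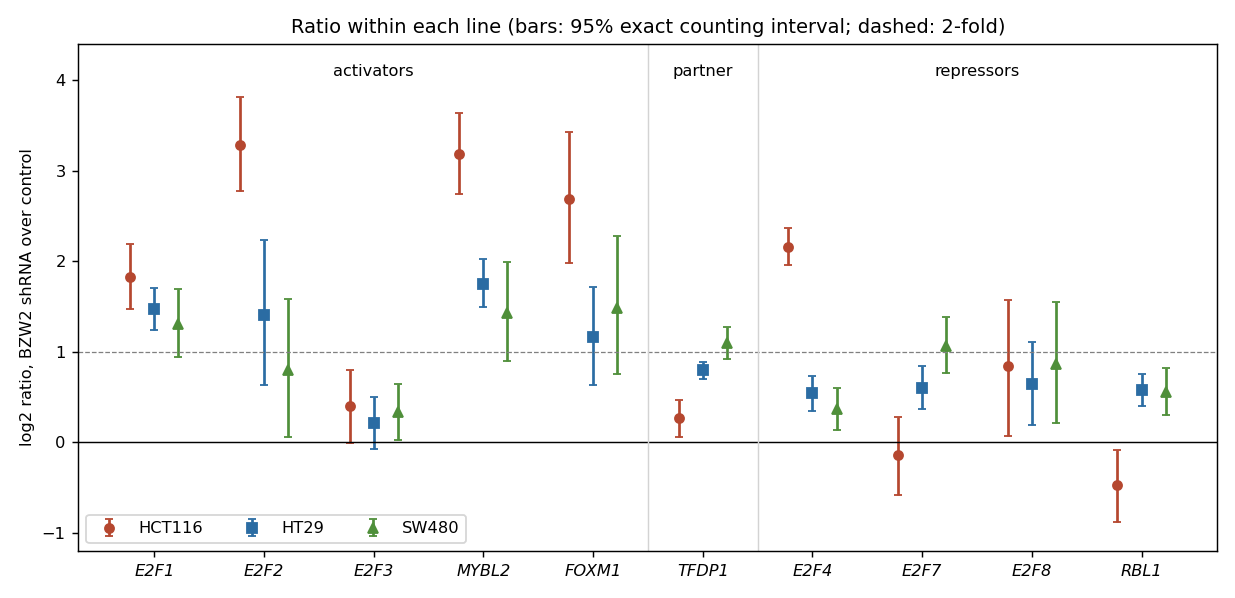
Log2 ratio of BZW2 shRNA over control within each line, from TMM-scaled reads without a prior count, with 95% exact counting intervals as bars. HCT116 was the highest line for E2F1, E2F2, E2F3, MYBL2, FOXM1 and E2F4, while E2F7 and RBL1 lay below 0 in HCT116 and above it in HT29 and SW480.

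At least 2-fold higher levels, with 5 CPM or more in the higher library, were seen for 5 of the 10 genes in HCT116, where 26.8% of all genes with enough reads reached that ratio. The count was 4 of 10 in HT29, against 3.74% of all genes, and 5 of 10 in SW480, against 4.98%. E2F1, MYBL2 and FOXM1 were past 2-fold in all 3 lines. E2F2 passed in HCT116 and HT29, E2F4 in HCT116, and TFDP1 and E2F7 in SW480. None of the 10 was at least 2-fold lower in any line, against 28.8% (HCT116), 6.17% (HT29) and 7.36% (SW480) of all genes. Non-overlapping levels with all knockdown libraries on top were found for E2F1, E2F4, E2F8, MYBL2 and FOXM1, that is 5 of 10, against 8.29% of all genes.

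The median log2 ratio of the activating E2Fs (E2F1, E2F2, E2F3) exceeded that of the repressors (E2F4, E2F7, E2F8, RBL1) by an amount that differed between lines. In HCT116 the medians were 1.81 for activators and 0.33 for repressors, in HT29 1.32 and 0.59, and in SW480 0.76 and 0.69. Each role held genes on both sides: E2F3 lay below every repressor in HT29 and SW480, and E2F4 was above E2F1 in HCT116. With 1 library per treatment in a line and 3 and 4 genes in the roles, the difference was not tested.

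In HCT116 the ratios of the 10 genes separated by GC content. The 5 genes past 2-fold there had the highest transcript GC contents of the 10, from 55.6% for FOXM1 to 62.5% for E2F1. RBL1 had the lowest at 40.0%, followed by E2F7 at 43.1%, and these were the genes with the lowest HCT116 ratios. A smooth trend on GC content and length was fitted in each pair to the genes with at least 50 reads summed over the pair. It was then taken off the ratios of all genes of the pair. All 10 genes then had a log2 ratio above 0 in every line, where 24.1% of all genes did. In HCT116 the corrected log2 ratios were 2.21 for E2F2, 1.73 for MYBL2 and 1.53 for FOXM1, and these 3 stayed past 2-fold, against 15.5% of all genes after the correction. The corrected counts were 4 of 10 in HT29, against 3.95% of all genes, and 4 of 10 in SW480, against 4.66%. E2F1 came to 0.35 and E2F4 to 0.81, against 1.81 and 2.15 as measured. RBL1 moved to 0.83, against −0.47 as measured, and E2F7 to 0.70, against −0.14. The activator and repressor medians in HCT116 then both stood near 0.81 to 0.82, while HT29 kept 1.24 against 0.69 and SW480 had 0.88 against 0.67. In HT29 and SW480 the gene that moved most was RBL1 in HT29, to 0.85, against 0.58 as measured.

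**Figure D3:**
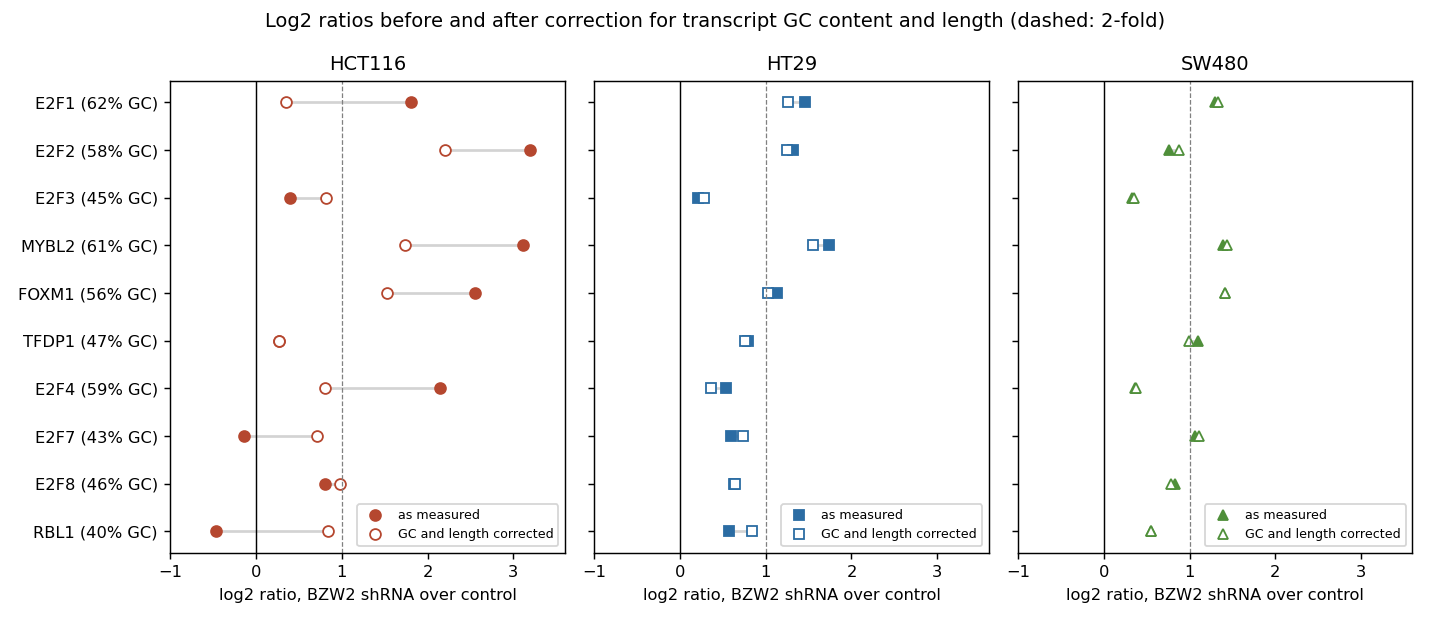
Log2 ratio of BZW2 shRNA over control for each gene as measured (filled) and after correction for transcript GC content and length (open), in each line. In HCT116 the correction moved E2F1, E2F2, E2F4, MYBL2 and FOXM1 down and RBL1, E2F7, E2F3 and E2F8 up, and it left HT29 and SW480 nearly in place.

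Levels were compared between the genes as CPM per kilobase of the longest transcript. With BZW2 shRNA the order was TFDP1 (72.8 ± 27.7, SD, n = 3 lines), E2F4 (47.6 ± 42.4), E2F1 (23.7 ± 7.28), MYBL2 (20.5 ± 13.0), RBL1 (9.41 ± 3.10), E2F7 (7.14 ± 1.42), E2F3 (7.01 ± 1.63), E2F2 (5.37 ± 7.07), FOXM1 (4.73 ± 2.88) and E2F8 (3.35 ± 0.48). With the non-targeting shRNA it was TFDP1 (45.0 ± 16.4), E2F4 (18.7 ± 3.15), E2F1 (8.09 ± 1.55), RBL1 (7.92 ± 1.08), E2F3 (5.65 ± 1.01), E2F7 (5.09 ± 1.14), MYBL2 (4.25 ± 1.82), E2F8 (1.97 ± 0.32), FOXM1 (1.25 ± 0.13) and E2F2 (0.90 ± 0.50). All neighbours in the knockdown order had overlapping ranges over the 3 lines. In the control order TFDP1 lay above E2F4 and E2F4 above E2F1 in every line, and the ranges of RBL1 and E2F3, of MYBL2 and E2F8, and of E2F8 and FOXM1 did not overlap, while the other neighbours did. MYBL2 stood in seventh place among control libraries and in the fourth among knockdown libraries, next to E2F1.

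E2F genes carry E2F sites in their own promoters, a textbook feature of the family, and the sequences upstream of the genes are shown for those that hold such letters. RefSeq (GRCh38.p14) gave promoter sequences for 8 of the 10 genes. E2F8 and FOXM1 had none in the table used. The letters TTTCCCGC, TTTGGCGC, TTTCGCGC and TTTGCCGC were searched on both strands from 250 bases before the start to the end of each 300-base window. Of the 8 genes, 5 held a match (E2F1, E2F2, E2F3, RBL1 and TFDP1), beside 3.31% of all 35116 promoters. The 150 bases before the start are printed 5′ to 3′ on the gene's strand, with the matched letters in capitals, for the genes whose printed window lies almost wholly outside the annotated transcript. For E2F3 it is the first of 2 promoters in the table.
E2F1, minus strand, chr20:33686386-33686535: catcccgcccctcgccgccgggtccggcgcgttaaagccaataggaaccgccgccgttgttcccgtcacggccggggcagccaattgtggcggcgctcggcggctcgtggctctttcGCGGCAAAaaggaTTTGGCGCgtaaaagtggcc
E2F2, minus strand, chr1:23531234-23531383: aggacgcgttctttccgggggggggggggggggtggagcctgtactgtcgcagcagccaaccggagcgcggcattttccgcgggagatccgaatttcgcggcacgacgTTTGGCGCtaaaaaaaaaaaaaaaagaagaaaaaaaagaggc
E2F3, plus strand, chr6:20401729-20401878: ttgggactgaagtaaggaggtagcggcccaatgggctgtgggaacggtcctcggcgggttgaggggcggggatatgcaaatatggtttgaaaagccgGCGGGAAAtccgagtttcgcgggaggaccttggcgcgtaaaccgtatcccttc
RBL1, minus strand, chr20:37095998-37096147: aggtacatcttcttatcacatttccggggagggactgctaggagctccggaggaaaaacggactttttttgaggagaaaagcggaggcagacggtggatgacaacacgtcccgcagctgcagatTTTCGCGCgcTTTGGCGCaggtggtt

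The matches lay near the start of the gene. E2F1 had one beginning 33 bases and one 20 bases before the start, RBL1 had them at 26 and 16 bases, E2F2 at 42, E2F3 at 53 and TFDP1 at 120 bases. MYBL2, E2F4 and E2F7 had no match to these exact letters in this window. Other forms of an E2F site were not searched for. No relation between these letters and the ratios was tested. CCAAT was found in E2F1, E2F3 and E2F7 (3 of 8 genes, 34.6% of all promoters). The CHR letters TTTGAA or TTCGAA, known from promoters bound by the MuvB core, were found in E2F3 (1 of 8 genes, 16.4% of all promoters). A match is a description of the letters, not of a bound site.

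Genes that E2F activates at the G1 to S boundary and genes that MYBL2 and FOXM1 activate in G2 and mitosis were mostly higher with BZW2 shRNA, like their regulators. Of 42 G1/S targets 41 were in the fit, and each of the 41 showed a positive fold change, against 5558 of all 10875 genes. In each line alike 31 were higher, against 22.3% of all genes, and 29 had an unadjusted limma p under 0.05 as higher genes, against 6.59% of all genes, while 0 passed over all genes. Their median log2 fold change was 1.37, and the line medians stood at 1.43 (HCT116), 1.14 (HT29) and 1.19 (SW480). Those of smallest p were the flap endonuclease gene FEN1 (1.84 ± 0.37, limma adjusted p = 0.250, SE over 3 lines), the origin recognition gene ORC1 (2.07 ± 0.43) and the histone chaperone gene ASF1B (1.93 ± 0.40). ASF1B, with a log2 ratio of 2.22 in HCT116, came to 0.88 there after the GC and length correction. Among the 40 G2/M targets, 37 fold changes were positive, against 5558 of all 10875 genes. In every line 29 of these targets were higher, against 22.3% of all genes. At an unadjusted limma p under 0.05, 25 were higher, against 6.59% of all genes, and 0 passed over all genes. Their median was 1.27, with 1.12 in HCT116, 1.10 in HT29 and 1.33 in SW480. KIF20A, a mitotic kinesin gene, had the smallest p, with log2 ratios of 2.82, 1.85 and 2.14 in HCT116, HT29 and SW480. CCNB1, the mitotic cyclin, had 3.08, 1.45 and 2.31 and AURKA, a mitotic kinase, 2.33, 1.52 and 2.33. CENPE, KIF20B and CENPF, motor and kinetochore genes, had negative fold changes (−1.09, −0.66 and −0.17), and each was lower in HCT116 and HT29 and higher in SW480, with log2 ratios there of 1.06, 1.01 and 1.16. After the GC and length correction KIF20B and CENPF turned above 0 in HCT116 (0.63 and 0.11). The lists were chosen with many such genes already known to be higher in these data, so they are no independent evidence.

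**Figure D4:**
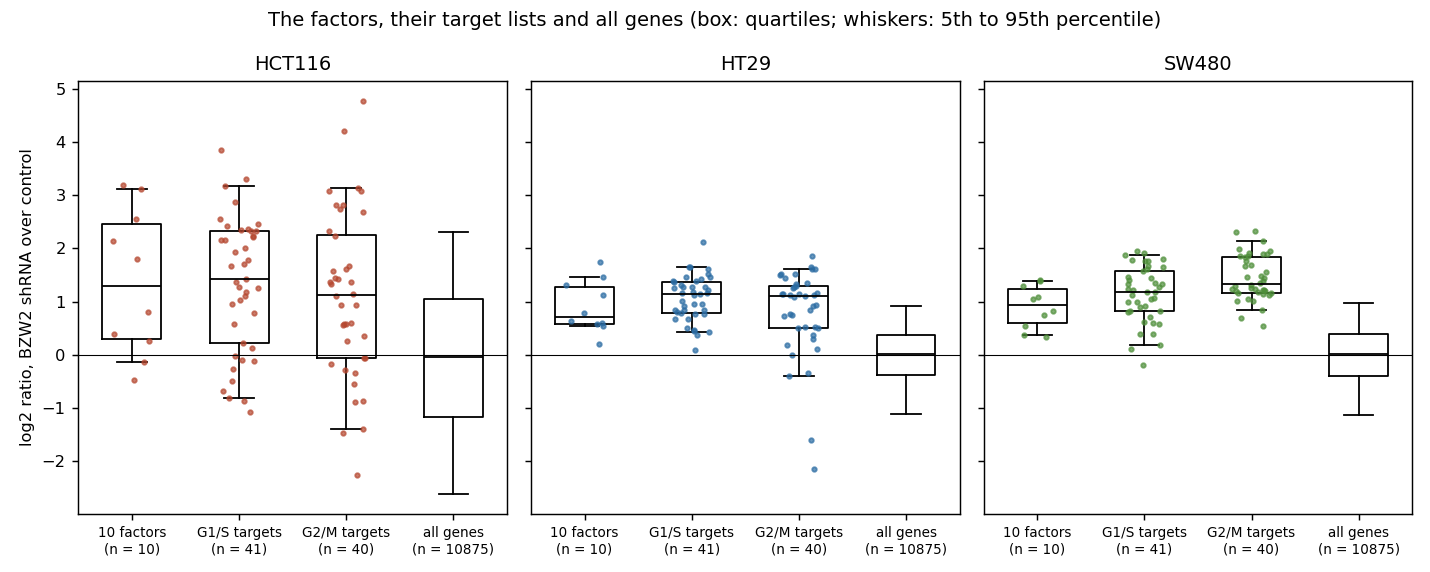
Log2 ratios of BZW2 shRNA over control for the 10 factors, 41 G1/S targets, 40 G2/M targets and 10875 genes listed in all lines, in each line. Boxes give quartiles and whiskers the 5th to 95th percentile; the medians of the 3 lists lay above the median of all genes in each line, with the widest spread in HCT116.

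Most of the other E2F, DP and pocket genes had fold changes below 0 as measured, and their difference from the 10 genes was not tested. Of 6, 1 had a positive fold change, against 5558 of all 10875 genes in the fit. An unadjusted limma p under 0.05 was reached by 0, against 6.59% (higher) and 7.04% (lower) of all genes. In each line 3 were lower (E2F5, E2F6 and RBL2), against 21.1% of all genes. RBL2, the pocket protein p130 of resting cells, had a log2 ratio of −1.68 (HCT116), −0.057 (HT29) and −0.20 (SW480), and a log2 fold change of −0.61 ± 0.43 (SE, n = 3 lines). The repressor genes E2F5 and E2F6 stood at −0.67 ± 0.46 and −0.30 ± 0.38. RB1, the retinoblastoma gene, had −1.51, −0.12 and 0.39 in HCT116, HT29 and SW480. TFDP2, the other DP gene, was at −3.64 in HCT116 (22 against 917 reads), 0.32 in HT29 and −0.47 in SW480, and the HCT116 value was −3.09 after the GC and length correction. MYBL1 (A-Myb) was 0.44 ± 0.53 over lines, with 1.61 in SW480 and values near 0 or below in HCT116 (−0.34) and HT29 (−0.049). In HCT116 the list's median of −1.48 came to −0.042 after that correction, and its members have a median GC content of 40.7%. The list's HT29 median came to 0.24, against −0.090 as measured. After the correction RB1 and MYBL1, 2 of the 6, were above 0 in every line, against 24.1% of all genes, E2F5 was above 0 in HCT116 and HT29, and E2F6 was below 0 in all lines.

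The MuvB core genes showed no shared direction as measured. LIN37 was not analysed here. LIN9, LIN52, LIN54 and RBBP4, the scaffold of both DREAM and the MYB complex, had log2 fold changes of 0.093 ± 0.47, 0.25 ± 0.43, −0.26 ± 0.45 and 0.12 ± 0.37 (SE, n = 3 lines). Of these 4, 0 had an unadjusted limma p under 0.05, against 6.59% (higher) and 7.04% (lower) of all genes. LIN54, the DNA-binding subunit, stood at −1.34 (HCT116), −0.0079 (HT29) and 0.48 (SW480) as log2 ratios. All 4 were below 0 in HCT116 as measured. After the GC and length correction all 4 were above 0 in every line, against 24.1% of all genes.

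Among 13 genes of G1 control upstream of E2F, 3 were higher and 2 lower at an unadjusted limma p under 0.05, against 6.59% and 7.04% of all genes, and 0 passed over all genes. CCNE1 and CCNE2 are in this list and also among the G1/S targets counted above. CCNE1, the cyclin that frees E2F by phosphorylating the retinoblastoma protein together with CDK2, stood at a log2 fold change of 1.42 ± 0.44 and CDK2 at 1.15 ± 0.37. CDK2 had nearly equal log2 ratios in HCT116 (1.04), HT29 (1.15) and SW480 (1.13), of which the HCT116 value was 0.37 after the GC and length correction. The inhibitor gene CDKN2C was at 1.06 ± 0.47, with an HCT116 log2 ratio of 0.72 that turned to −0.53 after that correction. The inhibitor genes CDKN1C and CDKN2B were at −1.25 ± 0.52 and −1.36 ± 0.57. CDKN1C had log2 ratios of −2.07 in HCT116 (8 against 118 reads), −0.13 in HT29 and −1.60 in SW480. CDKN2B had −3.04 (7 against 207 reads), −0.58 and −0.48 in that order. CDKN1A, which encodes the p53-induced inhibitor p21, went opposite ways, at 1.20 in HCT116 (−0.11 after the correction), −2.06 in HT29 and 0.49 in SW480 on the log2 scale. Of 10 genes that turn over or regulate these factors, 3 were higher at an unadjusted limma p under 0.05, against 6.59% of all genes: CDC20, CCNF and SKP2. At that threshold 0 of the 10 were lower, against 7.04% of all genes. CDC20 is also among the G2/M targets counted above. CCNF, the F-box protein cyclin F, had a log2 fold change of 2.24 ± 0.48, and SKP2, another F-box protein, 1.34 ± 0.37 (SE, n = 3 lines). Those of smallest p among the negative fold changes, USP28, EMSY and DYRK1A, stood at −0.91 ± 0.51, −0.45 ± 0.45 and −0.29 ± 0.36. USP28 was higher in HT29 (log2 ratio 0.36) and EMSY in SW480 (0.14). DYRK1A turned to 1.17 in HCT116 and 0.22 in SW480 after the GC and length correction, but stayed at −0.23 in HT29.

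The genes whose 3 within-line log2 ratios lay nearest to those of a factor were taken by Euclidean distance among 9698 genes with at least 50 reads in each pair. E2F1 lay nearest to CHAF1B (distance 0.16), RACGAP1 (0.20) and CHAF1A (0.22). MYBL2 lay nearest to CDCA3 (0.21), UBE2C (0.36) and CCNF (0.43). FOXM1 lay nearest to KPNA2 (0.18), TACC3 (0.22) and TUBB (0.25). CHAF1B, a chromatin assembly factor gene, stood at 1.94 (HCT116), 1.52 (HT29) and 1.34 (SW480), beside 1.81, 1.46 and 1.29 for E2F1. The distances used the ratios as measured. After the GC and length correction the HCT116 values were 1.80 for CHAF1B and 0.52 for CHAF1A, beside 0.35 for E2F1. Those of UBE2C and CCNF were 3.09 and 2.31, beside 1.73 for MYBL2. Corrected values of the other neighbours are not given here.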

How the data were processed

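Per the submitters' processing notes, bcl2fastq 2.17, STAR 2.5.2b, DESeq and GRCh38 were used. The sources used here do not name the counter, annotation release or strandedness. The authors deposited a normalised signal per gene and library, read counts divided by a size factor set within each line. Dividing by the value of 1 read recovered whole reads (tolerance 0.1 read) for 100% of values. For the SW480 control the smallest value stood for 2 reads. Of 13040 identifiers, 19 on repeated rows were left out. The lowest sum of a listed pair was 21 reads, so genes with fewer reads are not analysed here.

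Across lines, limma 3.58.1 (R 4.3.3) was fitted to log2(value + 1) on treatment with the line as a block, with a mean-variance trend, two-sided, over 10875 genes listed in all lines. It has 2 residual and 7.26 prior degrees of freedom, and understates changes of low genes. Libraries were paired by cell line. The correlation of deviations between knockdown and control of a line was 0.28, 0.75 and 0.45 in HCT116, HT29 and SW480. The highest with another line's control was 0.23, −0.66 and 0.38. Deviations sum to 0 over the 3 lines of a treatment, which pulls the values with other lines down. The gap, widest in HT29, is therefore no test of the pairing. Within a line, log2 ratios of TMM-scaled CPM (edgeR 4.0.16, prior count 2) carry exact Clopper-Pearson 95% counting intervals. Levels by library use TMM over 6 libraries, so their quotients differ slightly from the ratios. GC content and length are those of the longest GENCODE 29 transcript, and their trend was fitted with mgcv 1.9.3. DESeq2 1.42.0 was an alternative. Fits were tested on simulated data. Members and lists were chosen with earlier results of these data known. Named genes were the 10 members, all other E2F, pocket and MuvB genes, the 3 of smallest p in each direction of other lists, and the 3 nearest to E2F1, MYBL2 and FOXM1.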

Additional observations from a re-analysis of the deposited data

Results flagged for a closer look

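E2F7 and RBL1 had log2 ratios on opposite sides of 0 in different lines. For E2F7 they were −0.14 (HCT116), 0.60 (HT29) and 1.06 (SW480). For RBL1 they were −0.47 (HCT116), 0.58 (HT29) and 0.55 (SW480). The difference between lines was not tested, since each line had 1 library per treatment. After the GC and length correction the HCT116 values were 0.70 for E2F7 and 0.83 for RBL1, on the same side as the other lines.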

How the results depend on the processing

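Of 110 fold changes of single members over 11 alternative fits, 0 changed sign and 5 came past the threshold: E2F1 and MYBL2 with DESeq2 and without HCT116, and MYBL2 without SW480. The count of members past the threshold was 2 with DESeq2 and 0 to 2 with a line left out. Fits with a line left out lean still more on spread pooled over genes. Over all genes, 244 passed with DESeq2, 57 to 338 with a line left out, 1 with a pseudocount of 8, 2 with the GC and length correction and 0 in the other fits. The fit without the replicate block, that is without the cell line as a term, was run on TMM-scaled log2 CPM. In that fit 0 members and 0 genes passed. The members' median log2 fold change was 0.87, the same as with the block on that scale. The members' median stayed between 0.87 and 1.08 in all fits. Of 120 within-line ratios of members under 4 alternatives, 3 changed sign, all in HCT116: TFDP1 with library size scaling (−0.054), and E2F7 (0.70) and RBL1 (0.83) with the GC and length correction. That correction also gave 3 members at least 2-fold higher in HCT116, in place of 5, and an activator minus repressor difference of −0.0078 there, in place of 1.48. With library size scaling 7 members were above 0 in all lines, with the correction or without HCT116 10 were, and without HT29 or SW480 8 were. The counts of members above 0 in all lines under alternatives were added after the data were seen. FOXM1 and E2F2 had 20 reads in a control library, so counting error limits their ratios most.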
